A study of Mus musculus with 2 samples.

Results

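On the array used here, 1728 exons of mouse long intergenic noncoding RNAs (lincRNAs) carried a probe for each of their strands, and 934 of them (54.1%) gave signal on exactly 1 strand in kidney. These 934 exons were chosen by their measured signal: a strand counted as on when its processed signal, the background-subtracted spot brightness, was 40 or more on both the left and the right kidney array. Exons with exactly 1 strand on were kept. Another 314 exons had both strands on and 480 had neither. The counts and signal levels of the 934 exons therefore describe the choice and were not tested.

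The samples were 2 pools of kidney RNA from male mice, 1 of left and 1 of right kidneys, and each pool was put on 1 Agilent 1-colour array. The series text was read as 3 kidneys per pool, and its wording does not settle this. Both groups were described only as kidney of male Mus musculus: the labels name no strain, age, treatment or genetic change. With 1 array per side and pooled animals there was no replicate, so no test between kidneys could be made. In whole tissue, fewer cells that carry a transcript and less of it per cell cannot be told apart.

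LincRNAs are transcribed from stretches between protein-coding genes, mostly by RNA polymerase II, and many are spliced and polyadenylated like messenger RNAs. Many mouse lincRNAs were first located by the chromatin marks of active promoters and transcribed gene bodies. Such marks show that a stretch is transcribed but not from which strand, and a probe for each strand can tell the orientations apart. Antisense transcripts and divergent transcription from shared promoters are known to give RNA from both strands of some loci. On this array an exon is known by a number (MM9LINCRNAEXON11400, for example) and a plus or minus sign, and the array grid names the mm9 build. Gene names, coordinates and probe sequences of the exons were not analysed here, and whether the sign refers to the genome or to an annotated transcript is not given in the sources used here. Exons are named below by number.

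Among the 934 exons, 527 had their signal on the minus strand and 407 on the plus strand, a plus share of 43.6% (95% interval 40.4 to 46.8, exact binomial, counting error only). The minus strand was on more often over the whole set too, in 841 of 1728 exons (48.7%) against 721 (41.7%) for the plus strand. Where the plus strand was on, the minus strand was on as well in 314 of 721 exons (43.6%, 39.9 to 47.3). Where the plus strand was off, the minus strand was on in 527 of 1007 exons (52.3%, 49.2 to 55.5). These shares come from the same limit of 40 that chose the exons and are a description. For scale, 56.1% of all 59701 probes reached 40 on both arrays. Of 1200 spots of probes named as negatives, 3.17% did so. All of these 38 spots belonged to 2 of the 20 negative probes, and 0 of 1080 spots of the other 18 reached the limit.

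**Figure D1:**
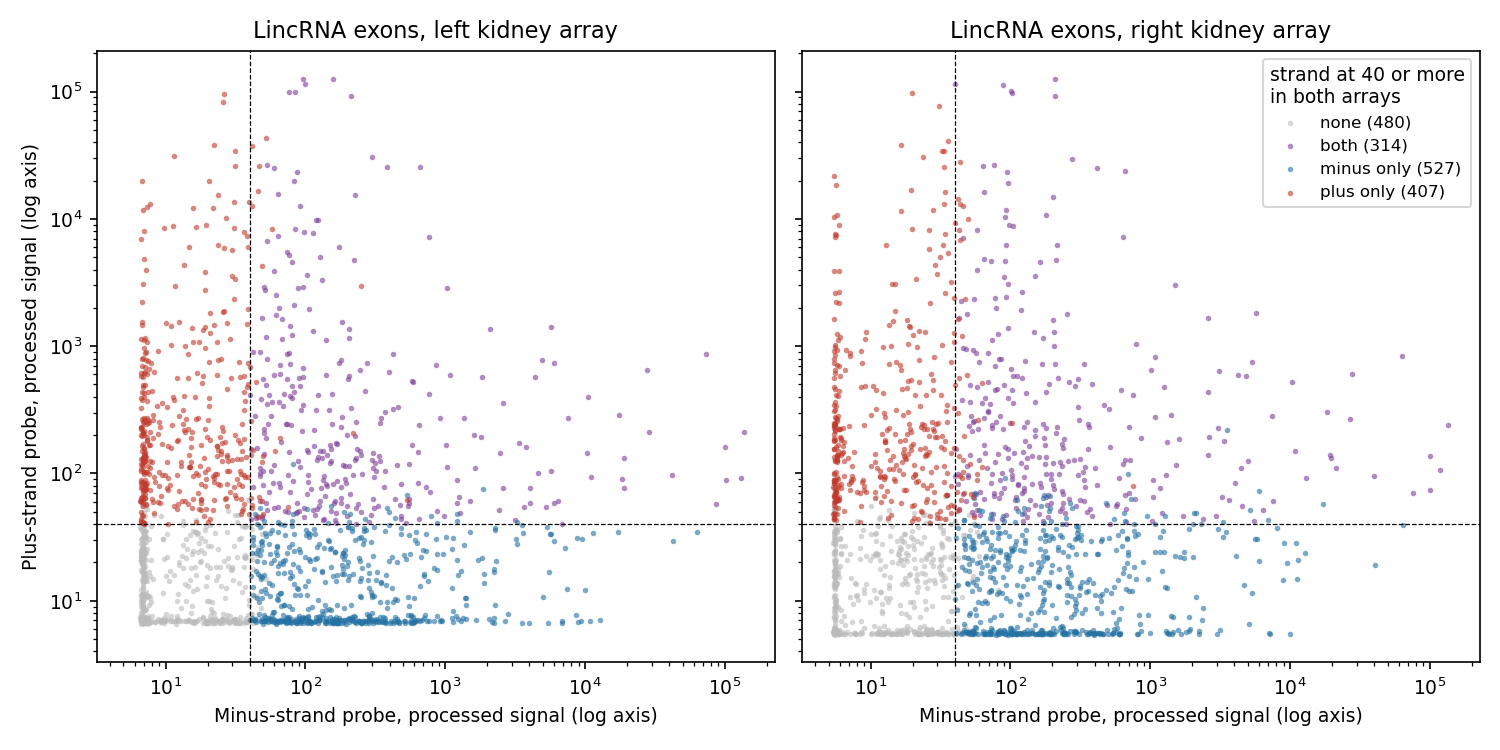
Each point is 1 of 1728 lincRNA exons, with the processed signal of its minus-strand probe on the horizontal and of its plus-strand probe on the vertical axis (both log), on the left and right kidney arrays; dashed lines mark the limit of 40. The 407 plus-only and 527 minus-only exons run up to the highest signals along one axis while the other strand stays mostly under the limit, and some points cross it on 1 array because a strand is on only if both arrays reach 40.

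Set beside other lincRNA probes of the array, the exon set had larger shares with signal on 1 strand and on both strands, and a smaller share with none. Of 340 mouse lincRNA loci of a separate probe set with a probe on both strands, 141 (41.5%, 36.2 to 46.9) had exactly 1 strand on and 22 (6.47%) had both. Of 608 loci named for human lincRNAs, 225 (37.0%, 33.2 to 41.0) had 1 strand on and 47 (7.73%) had both. Among the exons the corresponding shares were 54.1% (51.7 to 56.4) and 18.2%. The plus share was 46.1% (37.7 to 54.7) among the single-strand mouse loci and 52.4% (45.7 to 59.1) among the human-named ones. These intervals cover counting error over loci of the same 2 arrays and do not test the difference between classes.

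The signal of the strand that was on ranged over more than 3 orders of magnitude. On the left array it ran from 40.2 to 95404 with a median of 173, and on the right from 40.2 to 98060 with a median of 177. Plus-strand exons had medians of 169 (left) and 179 (right), minus-strand exons 181 and 176. Each of the 934 strands carried the scanner software's flag for well above background on both arrays, which the limit of 40 nearly fixes, as the flag rests on the same signal. The software put the error of these signals at up to 20.7% of the signal on the left array, with a median of 10.8%, and on the right array had a median of 10.5%. Each probe had 1 spot per array, so no spot-to-spot error could be measured for an exon.

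The brightest single-strand exon was exon 11400, whose plus-strand probe read 95404 ± 9540 (software error) on the left and 98060 ± 9806 on the right. Its minus-strand probe read 26.0 and 19.7 and was not well above background on either array. Exon 11979 read 82545 on the left and 76345 on the right for plus, with 25.9 and 31.1 for minus. The brightest minus-strand exon was 12109, at 63209 and 64285, with 34.6 and 39.1 on its plus strand, both well above background yet under the limit. Exon 10074 read 43331 and 41240 on the plus strand, and its minus strand reached 52.0 on the left and 35.6 on the right. In all 4 exons the left and right values of the bright strand differed by less than their software errors. The next 6 by signal were exons 10626 (minus) and 12079, 10267, 10664, 11822 and 11296 (plus), with signals between 25970 and 42989. Probes differ in sequence and in how well they bind, so the values of an exon's strands are given side by side and do not measure a ratio of RNA amounts.

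Bright single-strand exons lay mostly on the plus strand, against the majority for the set. Of the 10 brightest, 8 were plus, and of the 26 with a signal of 10240 or more on both arrays, 20 were plus (76.9%, 56.4 to 91.0). The share was 51.9% of 52 exons between 2560 and 10240, 43.8% of 112 between 640 and 2560, 37.6% (32.0 to 43.4) of 290 between 160 and 640, and 44.5% (39.9 to 49.2) of 454 under 160. In all, 47 of 78 exons at 2560 or more were plus (60.3%, 48.5 to 71.2), against 360 of 856 dimmer ones (42.1%, 38.7 to 45.4). Exons with both strands on showed no such tilt, since 16 plus and 16 minus probes of theirs were at 10240 or more. The brightness ranges, in 4-fold steps, were set after the data had been seen. Leaving out exons whose other strand reached 40 on 1 array gave a plus share of 56.4% (42.3 to 69.7) over the 55 that remained at 2560 or more, an interval that includes 43.6%.

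**Figure D2:**
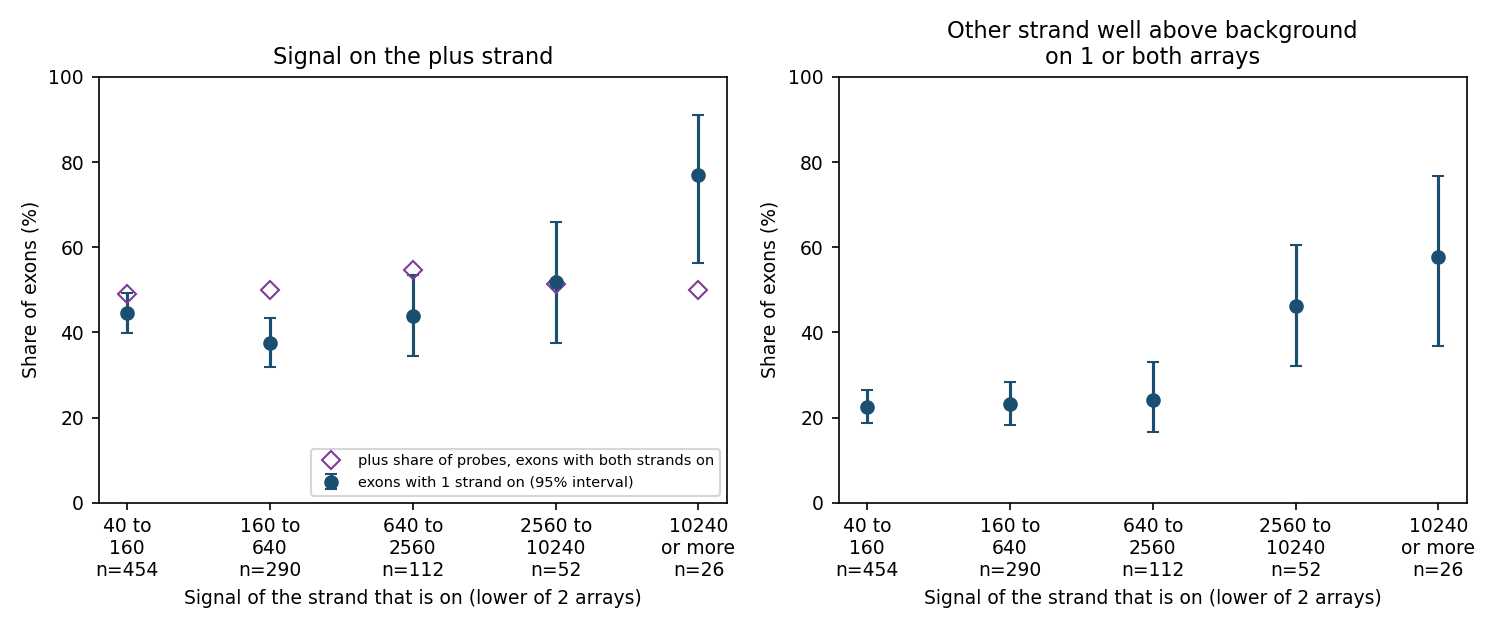
Share of exons in percent by the signal of their strand that is on, in ranges of the lower of both arrays with the number of exons (n); bars are exact 95% binomial intervals. At left, filled points give the share of single-strand exons on plus, rising to 76.9% in the top range, and open diamonds the plus share of probes of exons with both strands on, 50% there; at right, the share whose other strand was well above background on 1 or both arrays, from 22.5% in the lowest range to 57.7% in the highest.

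The other strand of most single-strand exons gave little signal. Its median was 10.8 (left) and 12.7 (right). Probes of exons with no strand on had medians of 8.67 and 11.7, and spots of the negative probes 7.07 and 5.78. In 699 of 934 exons (74.8%) the other strand was not well above background on either array. In 225 (24.1%) it was not significantly above background on either by the software's weaker flag. In 78 exons (8.35%) it was well above background on both arrays while staying under 40 on at least 1. The right array alone had the flag in 130 exons (13.9%), the left array alone in 27 (2.89%). Of all 26186 probes that did not reach 40 on both arrays, 76.1% had the flag on neither array, 7.07% on both, 14.3% on the right alone and 2.59% on the left alone, close to the shares of these other strands. The dimmest probe with that flag read 33.2 (left) and 27.2 (right).

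The other strand was detected more often in the exons with the brightest signal. The other strand was well above background on at least 1 array in 102 of 454 exons under 160 (22.5%, 18.7 to 26.6). The share was 23.1% of 290 exons between 160 and 640 and 24.1% of 112 between 640 and 2560. It was 24 of 52 (46.2%, 32.2 to 60.5) between 2560 and 10240 and 15 of 26 (57.7%, 36.9 to 76.6) above. The median of the other strand went from 10.1 (left) and 11.9 (right) in the lowest range to 27.8 and 29.7 in the highest. The plus and minus probes were among each other's 18 nearest spots in 2 of 934 exons, a count given over all exons and not for the brightest. The cause of the rise with brightness was not tested.

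In 135 exons (14.5%) the other strand did reach 40, on 1 array alone: 52 on the left and 83 on the right. Most of these lay close to the limit, and 7 were at 100 or more. How many of all probes reached 40 on 1 array alone was not counted, so these shares have no array-wide value beside them. The exons just inside the limit by their strand with signal were 10711 (minus, 40.2 left and 48.8 right), 11045 (minus, 44.6 and 40.2) and 10791 (plus, 40.3 and 47.8). Just outside, with no strand on, were 11694 (minus 39.8 and 54.0), 11884 (minus 43.7 and 39.8) and 11705 (minus 77.3 and 39.7). The lower value of each of these 6 exons differs from 40 by less than the software error of that value, which was between 6.77 and 8.38. The members whose other strand came nearest to 40 were 11620, 10271 and 10592. Exon 10271 read 1215 and 764 on minus and 47.9 and 39.9 on plus, and exon 11620 read 45.2 and 46.9 on minus and 39.98 and 43.4 on plus, its left plus value lying just under the limit. In 3 exons outside the set (10398, 10883 and 10970) the strand at 40 or more was plus on one array and minus on the other, with every signal between 31.1 and 61.9.

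Whether exons with nearby numbers had signal on the same strand was counted over pairs, with no test between distances. Of 454 pairs of single-strand exons with successive numbers, 251 had signal on the same strand (55.3%, 50.6 to 59.9), 91 of them on plus and 160 on minus. At a difference of 2 in number the share was 56.5% (51.8 to 61.1) of 453 pairs, and at 3 it was 58.9% (54.1 to 63.6) of 433 pairs. At 4 it was 50.6%, at 5 it was 51.1% and at 20 it was 53.5% (48.4 to 58.5) of 387. Unequal shares of the strands, here 43.6% plus, by themselves make same-strand pairs somewhat more frequent than mixed ones. The intervals of successive pairs and of pairs 20 apart overlap over all 934 exons. Among the 614 exons with a signal of 100 or more, 135 of 211 successive pairs agreed (63.98%, 57.1 to 70.5) and 125 of 200 at a difference of 2 (62.5%, 55.4 to 69.2). At differences of 3, 4 and 5 the shares of that subset were 54.1%, 47.3% and 47.6%, and at 20 it was 51.9% (43.9 to 59.8) of 162. The intervals at 1 and 2 also overlap that at 20, but overlapping intervals do not show that the shares are equal. The subset at 100 or more was added after the data had been seen. What the order of the numbers stands for, and which exons belong to 1 transcript, is not given in the sources used here, and pairs share exons, so the intervals cover counting error only.

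**Figure D3:**
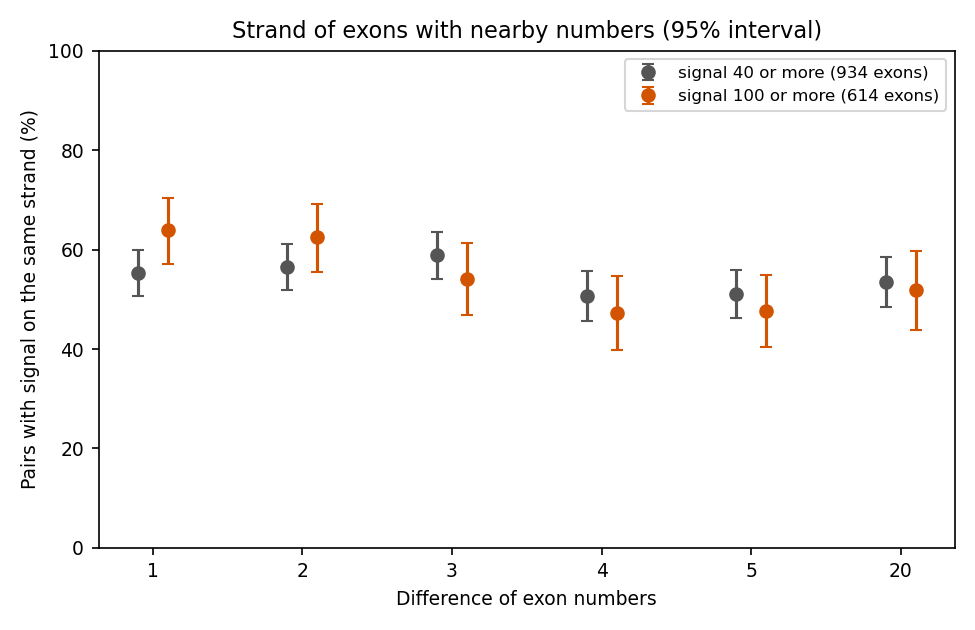
Share of pairs of single-strand exons with signal on the same strand, in percent, by the difference of their exon numbers; points are shares with exact 95% binomial intervals, grey for all 934 exons and orange for the 614 with a signal of 100 or more. The orange points stand at 63.98% and 62.5% for differences of 1 and 2, between 47.3% and 54.1% for 3 to 5 and at 51.9% for 20.

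The 934 exons fell into 257 exons with no numbered neighbour in the set and into longer runs of successive numbers, up to 8. In the longest, exons 10980 to 10987, 6 exons had signal on minus and 2 on plus. Its first 5 exons were all on minus, among them exon 10982 at 17244 (left) and 17310 (right), while the others of that stretch lay between 138 and 821. The plus exons of the run were 10985 (102 and 89.2) and 10987 (123 and 95.7). Of 5 runs of 7 exons, the first by number was 10266 to 10272, with 4 exons on plus and 3 on minus. It held the bright plus exon 10267 (37044 and 34433) between exons 10266 (114 on both arrays) and 10268 (56.1 and 55.3), both on plus as well. The minus strand of exon 10268 read 41.4 and 39.3, just under the limit on the right and well above background on both arrays. The minus exons of this run were 10269 (55.4 and 49.4), 10271 and 10272 (468 and 397). The run 10364 to 10370 had 5 exons on minus, up to 877 and 893 in exon 10368, and 2 on plus, exons 10366 (51.6 and 50.3) and 10369 (63.6 and 69.9). Each of these 3 runs held exons of both strands.

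**Figure D4:**
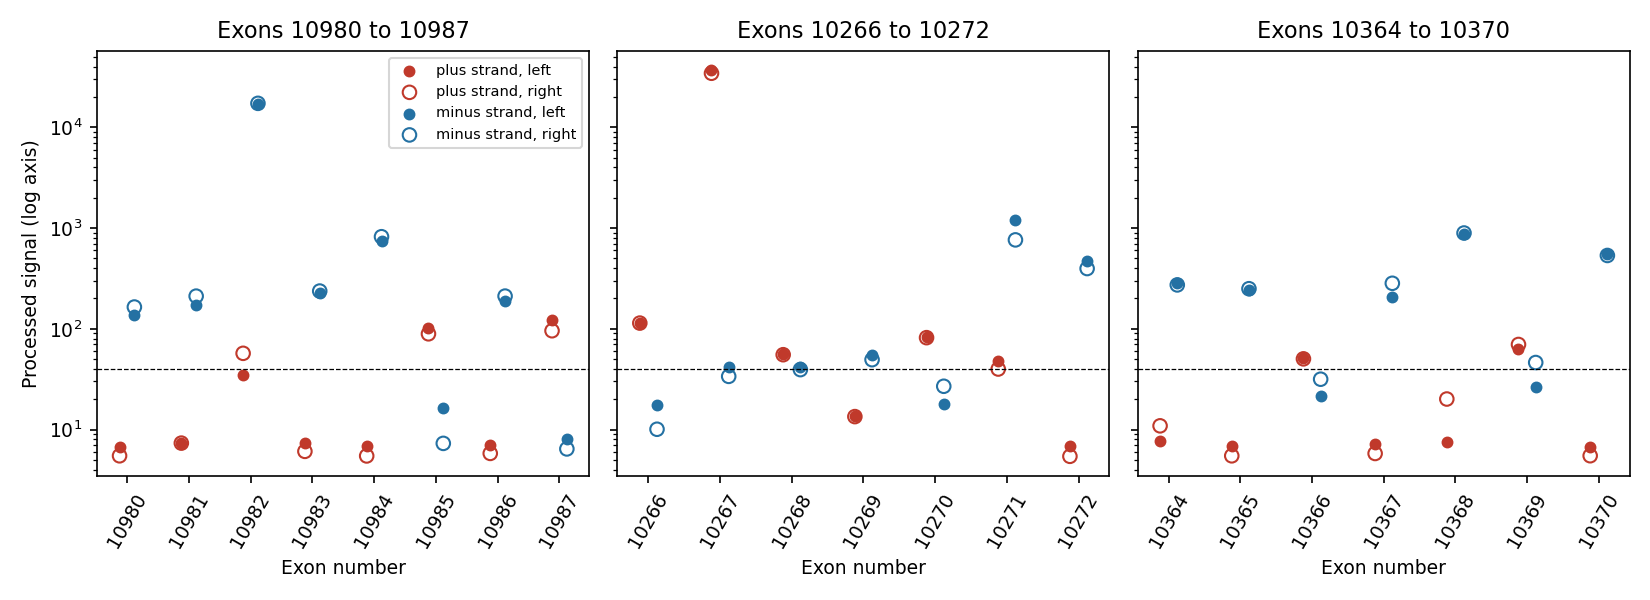
Processed signal (log axis) of the plus (red) and minus (blue) probes of each exon in the 3 runs named in the text, filled for the left and open for the right kidney array; the dashed line is the limit of 40. In exons 10980 to 10987 the first 5 exons are high on minus alone, with the plus strand of 10982 near the limit.

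Exons next in number to the 10 brightest ones differed in which strands were on. Of 17 such neighbours on the array, 8 were single-strand exons, 6 of them on the same strand as the bright one. These 6 include exon 10268, whose minus strand lay close to the limit. Another 6 neighbours had both strands on and 3 had neither. Exon 11400 stood between exon 11399, with both strands on (plus 119 and 119, minus 549 and 637), and exon 11401, with signal on minus alone (85.0 and 82.2). Exon 11296 had neighbours, 11295 and 11297, whose plus strands were also among the bright ones, at 9867 and 10315 and at 25501 and 24890, but their minus strands were on too (124 and 91.7, 385 and 417).

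Left and right kidney pools gave nearly the same signal for the strand that was on. Over the 934 exons Pearson's r of log2 signal was 0.991, across exons of the same 2 arrays. The choice of the exons left out strands at 40 or more on 1 array alone, and no r over all probes stands beside this value. Signals were scaled to the 75th percentile of each array before differences, left minus right on the log2 scale, were taken. Of the 934 exons, 6 differed at least 2-fold (0.642%, 0.236 to 1.39), 3 in each direction. Over 35367 probes of any kind flagged well above background on both arrays, 1.08% did so: 0.537% were higher in the left pool and 0.543% in the right. The requirement of 40 on both arrays leaves out dim probes with large differences, and among the 33515 probes of any kind that met it the share was 0.913%. At 1.5-fold, 47 exons differed (5.03%, 3.72 to 6.64), against 4.33% of those probes. A difference of at least 2 combined software errors was seen in 60 exons (6.42%, 4.94 to 8.19), 29 higher on the left and 31 on the right, against 7.64%. All these shares of the exons were thus close to those of probes at large.

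The exons with the highest right over left ratios were exons 11754, 10192 and 11202. Exon 11754 read 508 ± 51.2 on the left and 1907 ± 191 on the right on its minus strand, 3.76-fold higher on the right (log2 difference -1.91, combined software error 0.20). Its plus strand read 6.973 and 7.501, not well above background. The 18 nearest probes on the array had a median difference of 0.05, and with another background correction (normexp) exon 11754 stood at -1.75. The neighbouring exon 11755, also on minus, read 105 and 100. Exon 10192 read 84.9 ± 11.02 and 245 ± 25.2 on plus (2.90-fold), and exon 11202 read 57.7 ± 8.96 and 141 ± 15.1 on minus (2.44-fold). Exon 11201, next to it and with both strands on, also read higher on the right on its minus strand, 1839 against 3111. The neighbour on the other side, exon 11203 (minus), read 206 and 242. Exons 12120 (plus, 65.4 and 126) and 11686 (plus, 149 and 278) followed at 1.93-fold and 1.86-fold.

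In the other direction exon 11370 came first, at 267 ± 27.6 (left) and 90.6 ± 10.6 (right) on plus, 2.94-fold higher on the left (log2 difference 1.56, combined software error 0.23). Its neighbour 11369 had both strands on, with 153 and 142 on plus and 103 and 81.3 on minus. The other neighbour, exon 11371, had signal on minus alone (155 and 142). Exon 10704 read 340 ± 34.7 and 135 ± 14.6 on plus (2.51-fold, log2 difference 1.33), but its 18 nearest probes had a median difference of 0.95, and corrected for it the difference was 0.38. Exon 10302 read 91.9 ± 11.6 and 44.9 ± 7.15 on plus (2.04-fold), exon 11987 read 242 and 123 on minus (1.96-fold) and exon 10746 read 97.3 and 50.6 on plus (1.92-fold). With normexp, which adds 50 before the log2 and so shrinks dim differences by construction, exons 11754 and 10192 (-1.04) of all these stayed 2-fold apart. All of them were measured with a single spot on each array.

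**Figure D5:**
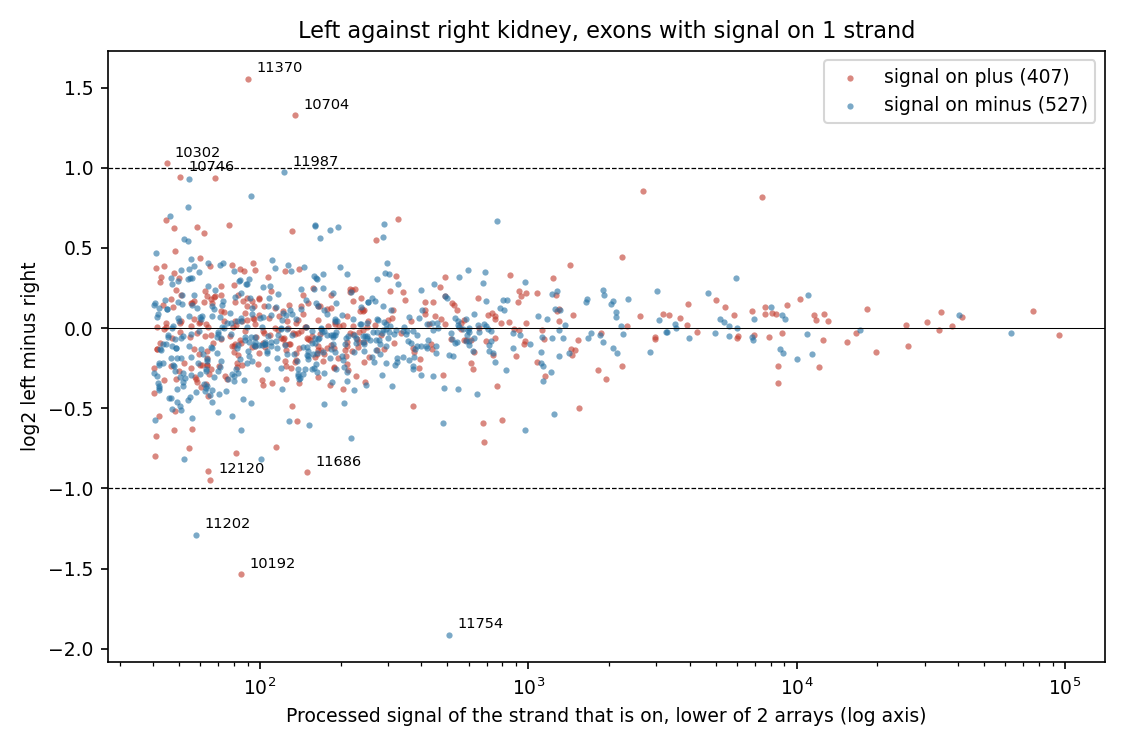
Left minus right log2 difference of the strand with signal against its processed signal (lower of both arrays, log axis) for 934 exons, red for plus and blue for minus; dashed lines mark 2-fold and the labelled points are the exons named in the text. The 6 exons beyond the dashed lines all lie under 640 on this axis, and none of the 78 exons at 2560 or more reaches 2-fold. Probes of any kind were much the same. Those 2-fold apart were 232 of 12396 between 40 and 160 and 52 of 8727 between 160 and 640. They were 18 of 5435 between 640 and 2560, 4 of 3561 between 2560 and 10240, and 0 of 3396 at 10240 or more.

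Over the single-strand exons the median difference was -0.030 (95% order-statistic interval -0.045 to -0.015), against 0.013 for all probes well above background on both arrays. The intervals of these medians are over exons of the same 2 arrays. They do not measure variation between arrays or pools, and test neither left against right nor plus against minus. Exons on minus had a median of -0.044 (-0.062 to -0.026) and exons on plus -0.003 (-0.033 to 0.022). The median of all probes itself depended on brightness, from -0.054 between 40 and 160 to 0.054 at 10240 or more. In the same ranges the exons stood at -0.053 and 0.016. Between 160 and 640 the exons were at -0.037 (-0.061 to -0.013) and all probes at 0.000. Under scaling by the median of each array the exons' median turned positive, at 0.016, so its sign depends on the scaling. The 628 probes of exons with both strands on had a median of -0.022, with 16 of them 2-fold apart.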

How the data were processed

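RNA of left and right kidney pools was hybridised to 2 arrays, 1 per side. Per the labels' protocols, RNA depleted of ribosomal RNA was copied into labelled cRNA along whole transcripts by random priming. The deposited intensities come from Agilent Feature Extraction 11.0.1.1, per the submitters' processing notes and the file headers. Background was subtracted and spatial trends were removed array by array, and the arrays were not normalized to each other. The series value table equals them (largest relative gap 0).

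No exon probe had more than 1 spot or an outlier flag, and there were 0 saturated spots. Over 59701 probes without control, negative and outlier-flagged spots, log2 signal minus each array's 75th percentile (421 left, 420 right) was used. Combined errors join the software errors of both arrays. No p-value was computed. The number of arrays limits the precision.

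The rule for named exons took the 10 brightest, the 5 with the largest difference in each direction that keep their sign under normexp and quantile normalization, those nearest the limit, the 3 longest runs (ties by lowest number) and exons whose strand differs between arrays. The exon set and these choices were made with earlier results of these data known. Alternatives were other limits (30, 60, 100), the background flag, a gap (on at 80, off under 40), other scalings, normexp with offset 50 on median spot and background signals, position correction, and limits of 1.5-fold and 3-fold. Tools were R 4.3.3 (limma 3.58.1) and Python 3.11.15 (scipy 1.17.1, pandas 2.3.3), and the scripts were tested on simulated data.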

Additional observations from a re-analysis of the deposited data

How the results depend on the processing

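The number of single-strand exons lay between 787 and 935 under every alternative but the gap rule (on at 80 or more, off under 40), which gave 594. The flag rule shared 856 of its 909 exons with the set, and a limit of 100 shared 614 of 787. That the shared exons kept their strand is fixed by the rules. A strand at 100 is also at 40, and each of the 934 strands with signal carried the flag. The plus share lay between 42.9% and 44.7% under the other limits, flags and scalings. It was 60.3% over exons at 2560 or more and 56.4% over those of them with the other strand under 40 on both arrays, 2 subsets chosen after seeing the data. Agreement of successive exons moved to 63.1% with a limit of 100, 60.3% with the gap rule, and, chosen after seeing the data, 63.98% over exons at 100 or more and 69.4% of 36 pairs at 400 or more. The share whose other strand was well above background on at least 1 array follows the rule for off by construction: 25.2% became 15.0%, 33.3% and 42.4% with limits of 30, 60 and 100, 18.04% with the background flag, 12.3% with the gap rule and 12.5% with the other strand under 40 on both arrays. Of 934 exons, 6 were 2-fold apart, 10 with cyclic loess, 2 with normexp, 47 at 1.5-fold, 1 at 3-fold and 60 by 2 combined errors (added after seeing the data). The median difference was 0.016 with median scaling, -0.014 with cyclic loess and -0.014 with normexp. The cause of the change with cyclic loess was not tested. Of 60 values of the 10 exons named for their difference under these 6 scalings and corrections, 50 stayed within the combined software error and 10 did not, 9 of them with normexp and 1 (exon 10704) after position correction. None changed sign, which the choice of these exons fixed for normexp and quantile normalization. No paired analysis was possible because each side has 1 array. Signal over background limits the dim exons: 454 of 934 had a signal under 160.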

Other observations

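In 7 single-strand exons, picked after their values were seen, the other strand was at 100 or more on 1 array. How many of all probes read so high on 1 array alone was not counted, so the 7 have no array-wide share beside them. The minus strand of exon 10588 read 15.7 (left) and 759 (right), while its plus strand read 63.1 and 79.99. The minus strand of exon 10681 read 537 (left) and 23.2 (right), and that of exon 11717 252 and 14.3, beside a plus strand of 2970 and 3106. The plus strand of exon 11838 read 34.0 and 221, with minus at 3579 and 3562. The minus strand of exon 11856 read 218 and 5.45, with plus at 209 and 236, and the plus strand of exon 10212 read 119 and 32.5, with minus at 81.6 and 97.2. The minus strand of exon 11414 read 25.1 and 103, with plus at 231 and 249.8. In each of these exons the strand that was on read alike on both arrays, within 1.27-fold. Each bright value is 1 spot without an outlier flag, and the cause was not tested.

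Exon 10195 was the only exon with a probe on 1 strand alone. Its minus probe read 7.27 on the left and 18.1 on the right, under the limit.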
